A study of Homo sapiens with 10 samples.

Results

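The MYC, MAX and MXD network was followed here through 10 genes: MYC, MYCN and MYCL, their partner MAX, and the MAX-binding genes MXD1, MXI1, MXD3, MXD4, MNT and MGA. They were taken as the rows of the raw gene count table whose Ensembl identifier maps to these symbols, 10 of 55841 rows. All 10 passed the filter on low counts and were among the 23552 genes tested. The rule used no measured value.

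RNA was sequenced in 10 libraries from HES9, a line of human embryonic stem cells by its labels, grown in mTeSR1 on matrigel. The study's text names WA09 as the line of its transcriptome work, so the identity of the line is unresolved. The general population was the culture without sorting (5 libraries), and the HHH population was the fraction sorted by flow cytometry for the highest EPCAM, GCTM-2 and CD9 (5 libraries), which the study treats as the cells with high capacity for self-renewal. The labels place 2 libraries of each population in batch 1 and 3 of each in batch 2 and do not say what a batch was. Neither a donor nor a separate culture is named for the libraries, so p-values measure only the spread between these libraries, which may be technical. The deposit's design text mentions protein kinase C inhibitors, and no label of these libraries carries that treatment. All libraries come from 1 line, and the general population also contains the cells from which HHH was sorted.

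MYC proteins bind DNA as pairs with MAX, at the E-box with the core letters CACGTG, and are known as activators of genes for ribosome assembly, nucleotide synthesis and glycolysis. The MXD proteins, MXI1, MNT and MGA also pair with MAX at the same letters and recruit repressors of transcription, so the network is commonly described as a contest for MAX and for the E-box. Human embryonic stem cells are known to express both MYC and MYCN, and MYC activity is associated with their self-renewal and proliferation.

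Library totals ran from 47242595 to 78503395 counts. Batch accounted for 94.1% of the first principal component of log2 CPM, the counts divided by the TMM-scaled library total, and population for 91.2% of the second. The pluripotency markers summed to 3463 to 4160 CPM in the general libraries and 3118 to 4317 CPM in HHH. In batch 1 general had 3463 and 3806 CPM and HHH 3146 and 3118 CPM. In batch 2 general had 3945, 4160 and 3777 CPM and HHH 4147, 4072 and 4317 CPM, with overlap. Of these 6 genes, 1 passed as higher and 1 as lower over both batches, beside 1.94% and 3.89% of all genes. In batch 2 alone 3 passed as higher and 0 as lower, beside 5.13% and 8.05% of all genes. EPCAM, one of the antigens of the sort, was higher in HHH by 0.41 ± 0.08 on the log2 scale (SE, adjusted p = 0.0064). CD9, another, did not pass over both batches (0.29 ± 0.12, adjusted p = 0.20). It passed as higher in batch 2 alone (0.54 ± 0.09, adjusted p = 0.0028) and without HHH batch 1 replicate 3 (adjusted p = 0.031), and was -0.10 ± 0.15 in batch 1 alone (adjusted p = 0.81). The neural list (PAX6, SOX1, NES, LHX5, LHX2, SIX3 and EMX2) summed to 191 to 272 CPM in general and 128 to 246 CPM in HHH, most of it NES. The neural sum split by batch without overlap, with 191 and 224 CPM in general and 228 and 246 CPM in HHH in batch 1, and 240, 272 and 228 CPM against 178, 189 and 128 CPM in batch 2. LHX5, a neural transcription factor, had a mean of 6.82 CPM in general against 0.145 in HHH. Markers of mesoderm and endoderm summed to at most 2.53 CPM in any library. The fibroblast list summed to 271 to 290 CPM in general and 296 to 353 CPM in HHH, of which THY1, also a stem cell antigen, gave 141 and 217 CPM on average. Without THY1 the list summed to 131 to 150 CPM in general and 85.8 to 137 CPM in HHH. Of its 4 tested genes THY1 passed as higher (0.61 ± 0.08, adjusted p = 0.00045) and COL1A1, a collagen, as lower (-0.94 ± 0.16, adjusted p = 0.0033), and DCN and LUM, defining genes that were not tested, stayed under 0.05 CPM on average in both. The part of these cells in the results that follow was not tested, and in bulk RNA fewer cells of a type and less RNA per cell cannot be told apart.

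Levels of different genes were compared as CPM per kilobase of annotated exon. MYCN had the highest mean level, with 22.1 ± 1.78 CPM per kb in general and 23.3 ± 6.86 in HHH (SD, n = 5 each). MXD3 followed, with 14.2 ± 2.04 and 16.2 ± 1.90, and the ranges of the pair overlapped only slightly, with 17.6 CPM per kb as the lowest MYCN value and 18.7 as the highest MXD3 value. MGA (7.89 and 7.73), MYCL (7.62 and 6.20) and MYC (5.29 and 7.26) formed a middle group whose ranges overlapped, from 6.47 to 9.04, from 5.28 to 8.80 and from 4.44 to 8.11 CPM per kb. MXD4 (2.99 and 2.80), MAX (2.71 and 2.98) and MXI1 (1.91 and 2.27) lay lower and overlapped. MXD1 (0.787 and 0.849) and MNT (0.582 and 0.458) were lowest, and the ranges of these latter genes overlapped as well. On this scale the RNA of MAX, the shared partner, stood at 0.067 to 0.090 of the summed MYC, MYCN and MYCL level in every library. With the lengths implied by the deposited log2 values that ratio was 0.080 to 0.106. The middle of the order depended on the length used. With the shorter length implied by the deposited log2 values, MYC came after MYCN and MXD3, with a mean of 12.5 CPM per kb, ahead of MGA with 10.4 and MYCL with 6.68.

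**Figure D1:**
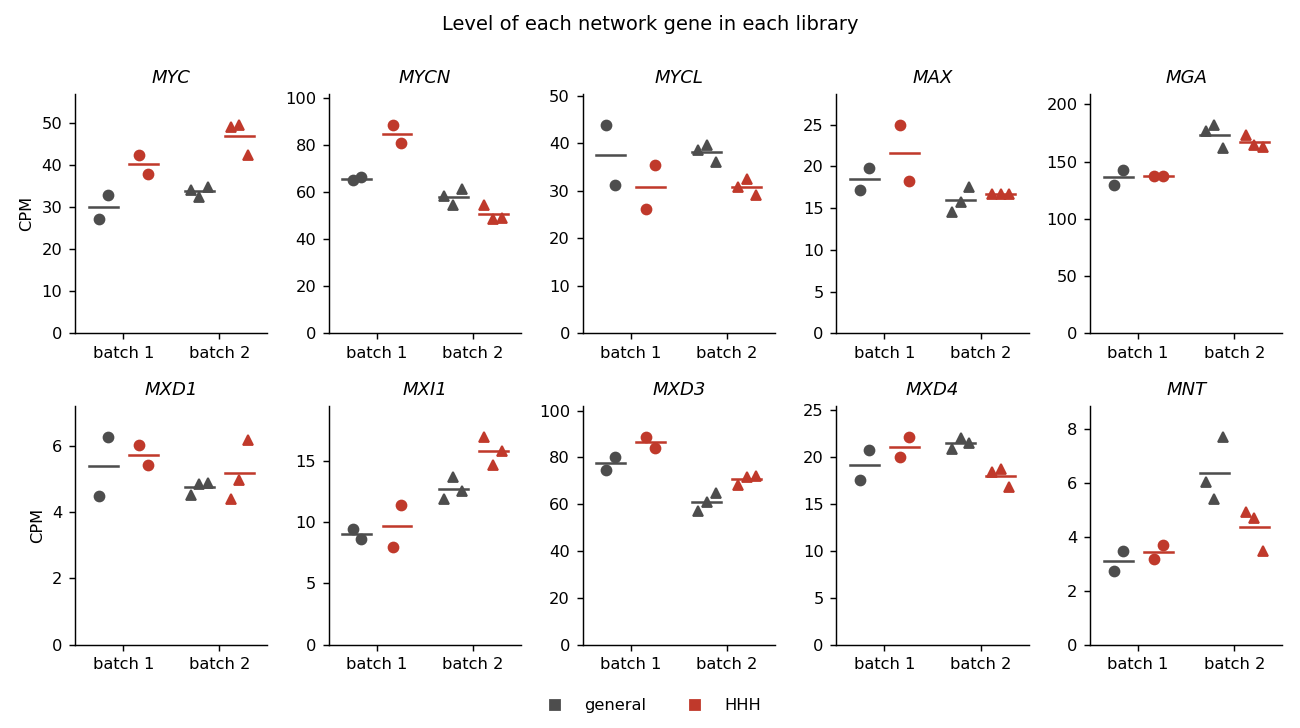
CPM of each of the 10 network genes in each library (vertical axis, starting at 0), by batch and population. Circles are batch 1, triangles batch 2, grey general, red HHH, and horizontal lines are means of a population within a batch. MYC is the gene whose 5 HHH libraries (37.9 to 49.5 CPM) all lie above its 5 general libraries (27.1 to 35.0 CPM).

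MYC (ENSG00000136997, chromosome 8) was the network gene that rose in HHH. The general libraries had 27.1 and 32.95 CPM in batch 1 and 34.1, 32.5 and 35.0 CPM in batch 2. The HHH libraries had 42.55 and 37.9 CPM in batch 1 and 49.2, 49.5 and 42.5 CPM in batch 2. All 5 HHH libraries stood above all 5 general ones. The means were 32.3 ± 3.06 and 44.3 ± 4.96 CPM (SD, n = 5 each), and the log2 fold change was 0.45 ± 0.08 (SE, adjusted p = 0.0026 in edgeR's quasi-likelihood test), a 1.37-fold difference. Among all tested genes 5.83% passed at an adjusted p under 0.05, 1.94% as higher and 3.89% as lower. MYC was thus 1 of 10 network genes to pass, and none of the 10 differed by more than 1.5-fold. A complete separation of the 5 HHH from the 5 general values, in either direction, was seen in 3.02% of all tested genes and in 1 of the 10, MYC.

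The MYC difference had nearly the same size in both batches, 0.42 ± 0.14 in batch 1 and 0.47 ± 0.09 in batch 2. It passed in batch 2 fitted alone (adjusted p = 0.0041) and not in batch 1 fitted alone (adjusted p = 0.26), where 0.573% of all tested genes passed, against 13.2% in batch 2. The test of the difference between the batches gave 0.05 ± 0.15 on the log2 scale (adjusted p = 0.88). The MYC call was kept with each library left out in turn, with an adjusted p of at most 0.014. It was lost without the batch term (0.46, adjusted p = 0.079) and on the deposited log2 values (0.32, adjusted p = 0.15), a table in which the median of all genes was itself -0.12. With the libraries of that table shifted to a common median, the MYC value was 0.47 (adjusted p = 0.0072).

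MYCN (ENSG00000134323, chromosome 2), the neural and embryonic member of the family, did not pass. The general libraries had 64.95 and 66.3 CPM in batch 1 and 58.1, 54.4 and 61.2 CPM in batch 2. The HHH libraries had 88.2 and 80.7 CPM in batch 1 and 54.4, 48.4 and 48.8 CPM in batch 2. HHH thus lay above general in batch 1, while in batch 2 the groups met at 54.4 CPM and all 3 HHH values were under the general mean of 57.9. The pooled log2 fold change was 0.03 ± 0.10 (SE, adjusted p = 0.90). It was 0.36 ± 0.11 in batch 1 (adjusted p = 0.23) and -0.20 ± 0.08 in batch 2 (adjusted p = 0.13). The difference between the batches was -0.56 ± 0.13 (adjusted p = 0.067, unadjusted p = 0.00071). It did not pass, and 0.777% of all tested genes did. Of the 10 network genes 0 passed this test in edgeR, and 3 had an unadjusted p under 0.05 (MYCN, MXD4 and MNT), as 18.9% of all tested genes did. The neural sum, most of it NES, crossed in the same direction, above general in batch 1 and below it in batch 2. Of the 4 neural genes tested in batch 1 alone, 3 had a log2 fold change below 0, so the list as a whole did not cross. The part of the neural sum in the MYCN values was not tested. With genes kept at 1 CPM or more in at least 5 libraries, fewer genes were tested and the value was -0.58 (adjusted p = 0.048).

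MYCL (ENSG00000116990, chromosome 1), the remaining paralog, pointed the other way from MYC. The general libraries had 43.7 and 31.2 CPM in batch 1 and 38.6, 39.6 and 36.1 CPM in batch 2. The HHH libraries had 26.2 and 35.3 CPM in batch 1 and 30.8, 32.5 and 29.0 CPM in batch 2. The groups overlapped in batch 1 and were apart in batch 2, and all 5 HHH values were below the general mean of their batch. The means were 37.8 ± 4.64 and 30.8 ± 3.45 CPM (SD, n = 5 each), and the log2 fold change was -0.30 ± 0.10 (adjusted p = 0.10). In the fit with a replicate block it was -0.29 (adjusted p = 0.037), and with the block and a trend in GC content removed it was -0.22 and did not pass (adjusted p = 0.052). The MYCL call also passed without general batch 1 replicate 2 or without HHH batch 1 replicate 3 (lowest adjusted p = 0.031), and in batch 2 alone (-0.31 ± 0.08, adjusted p = 0.025).

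**Figure D2:**
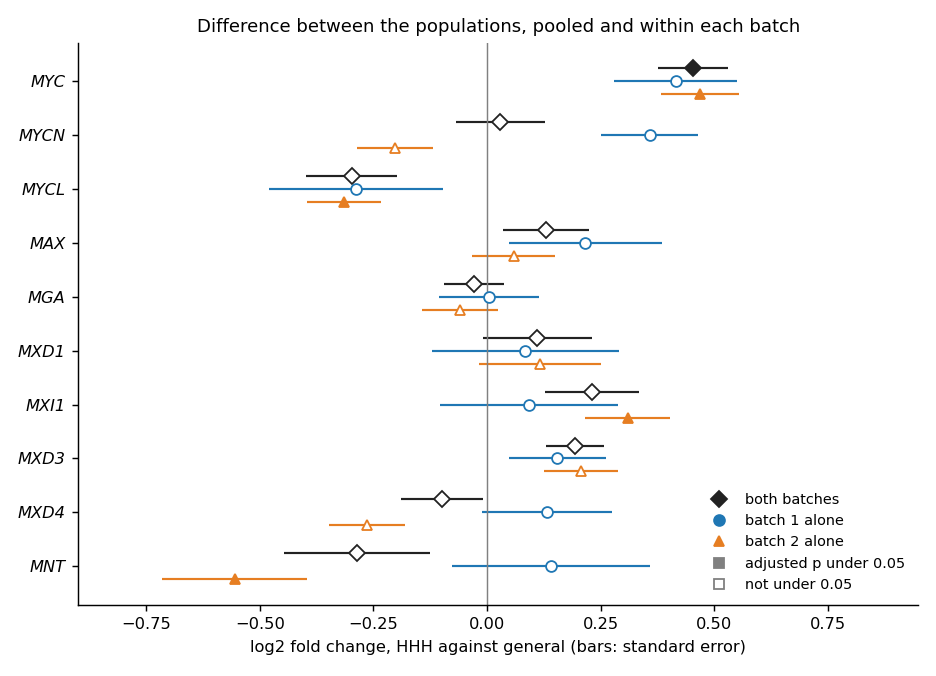
Log2 fold change of HHH against general for each network gene (horizontal axis, bars are standard errors), over both batches (diamonds), in batch 1 alone (circles) and in batch 2 alone (triangles). Filled symbols passed at an adjusted p under 0.05. MYC lies near 0.45 in all of them, while MYCN, MXD4 and MNT have opposite signs in the batches.

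The make-up of the MYC family was compared as each gene's share of the summed MYC, MYCN and MYCL level per kilobase of annotated exon. In batch 2 MYC held 16.1 to 16.3% in the general libraries and 22.8 to 25.2% in HHH, MYCN 59.7 to 63.1% and 54.5 to 58.1%, and MYCL 20.6 to 24.2% and 18.3 to 20.3%. MYC was the gene with the larger share in HHH, and none of these pairs of ranges overlapped. In batch 1 MYC held 12.1 to 15.1% in general and 14.5 to 15.7% in HHH, with overlap. MYCN held 64.0 to 67.3% and 68.8 to 72.3%, and MYCL 17.6 to 23.9% and 11.9 to 16.7%, both without overlap. The share of MYCL was thus lower in HHH in each batch, while that of MYCN was higher in batch 1 and lower in batch 2. MYCN was the leading paralog in every library. The ratio of MYC to MYCN was 0.258 to 0.270 in the general libraries of batch 2 and 0.393 to 0.462 in HHH. In batch 1 it was 0.188 to 0.224 and 0.212 to 0.218, where the HHH range lay within the general one. With the lengths implied by the deposited values, the MYC to MYCN ratio in batch 2 was 0.474 to 0.496 and 0.722 to 0.849. The size of the shares also depended on the length. With the implied lengths, MYC held 26.7 to 26.8% in general and 35.8 to 38.9% in HHH of batch 2. MYCN then held 53.8 to 56.6% and 45.8 to 49.6%. These shares are given as values, with no test. Batch 1 has 2 libraries a population and batch 2 has 3, and so few values often lie apart without a difference. The shares of a library sum to the whole, so a larger share of any gene means a smaller one for the rest.

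**Figure D3:**
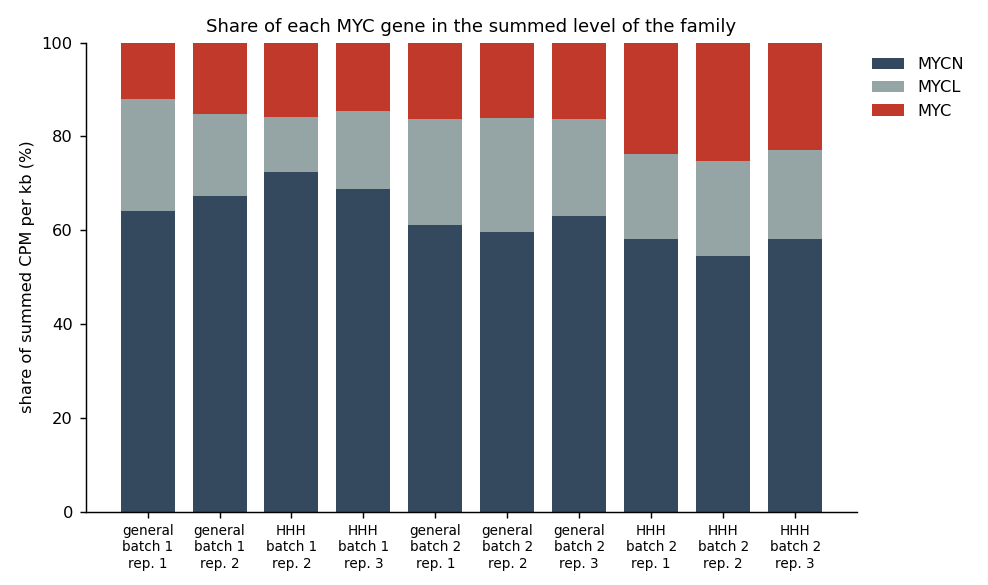
Share of MYCN, MYCL and MYC in the summed CPM per kb of the family (vertical axis, percent) in each of the 10 libraries. MYCN holds 54.5 to 72.3% of every bar, and the MYC share is largest in the 3 HHH libraries of batch 2, at 22.8 to 25.2%. The bars use annotated exon lengths. With the lengths implied by the deposited values, MYCN held 45.8 to 49.6% and MYC 35.8 to 38.9% in those libraries.

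MAX (chromosome 14), the shared partner, had 17.2 and 19.8 CPM in the general libraries of batch 1 and 14.5, 15.75 and 17.5 CPM in those of batch 2. Its HHH libraries had 24.9 and 18.2 CPM in batch 1 and 16.6, 16.7 and 16.7 CPM in batch 2. The populations overlapped in both batches, with 1 high HHH library in batch 1. The log2 fold change was 0.13 ± 0.09 (adjusted p = 0.46) and fell to 0.04 without HHH batch 1 replicate 2. Of the annotated exon bases of MAX, 16.1% are shared with genes of the opposite strand, mainly FNTB. How the reads were counted with respect to strand is not given in the sources used here.

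MGA (chromosome 15), a large scaffold that pairs with MAX and belongs to the repressive complex PRC1.6, was even between the populations. It had 130 and 143 CPM in general and 137.0 and 137.5 CPM in HHH in batch 1, and 176, 181.5 and 162 CPM against 173, 165 and 163 CPM in batch 2. The groups overlapped in each batch. The log2 fold change was -0.03 ± 0.07 (adjusted p = 0.85).

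The repressors of the MXD group gave no call in the pooled test. MXD3 (chromosome 5), known from proliferating progenitors, had 74.8 and 80.1 CPM in general and 88.9 and 84.2 CPM in HHH in batch 1. In batch 2 it had 57.0, 60.9 and 64.6 CPM against 68.05, 71.6 and 72.2 CPM. HHH was above general within each batch, a pattern (same direction, no overlap in either batch) that 9.35% of all tested genes showed and that MYC and MXD3 showed among the 10. The log2 fold change of MXD3 was 0.19 ± 0.06 (adjusted p = 0.097). With a trend in GC content removed from each library it passed (adjusted p = 0.033, and 0.015 with the replicate block as well). The MXD3 value is uncertain as a gene level, since 43.7% of its exon bases are shared with neighbouring genes, 24.2% with PRELID1 on the other strand and 19.5% with RAB24. PRELID1 itself was higher in HHH by 0.27 (adjusted p = 0.019), with 89.8 CPM in general and 108 in HHH, and RAB24 differed by -0.001 (adjusted p = 1.0). What part of the MXD3 counts came from these genes was not tested.

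MXI1 (chromosome 10), first found as a MAX interactor, had 9.46 and 8.67 CPM in general and 7.98 and 11.4 CPM in HHH in batch 1. In batch 2 it had 11.9, 13.7 and 12.5 CPM against 17.0, 14.7 and 15.9 CPM. The groups overlapped in batch 1 and HHH was above in batch 2. The pooled log2 fold change was 0.23 ± 0.10 (adjusted p = 0.22), and the MXI1 call passed without HHH batch 1 replicate 2 (0.32, adjusted p = 0.049). MXD1 (chromosome 2), associated with the onset of differentiation, ran from 4.48 to 6.27 CPM in general and from 4.397 to 6.17 CPM in HHH. Its ranges were nearly the same, with a log2 fold change of 0.11 ± 0.12 (adjusted p = 0.64).

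MXD4 (chromosome 4) and MNT (chromosome 17), the latter the most widely expressed antagonist of MYC, split by batch. MXD4 had 17.6 and 20.8 CPM in general and 20.04 and 22.2 CPM in HHH in batch 1, and 20.9, 22.1 and 21.5 CPM against 18.4, 18.8 and 16.8 CPM in batch 2. It overlapped in batch 1, and all HHH values were below general in batch 2. MNT had 2.74 and 3.45 CPM in general and 3.17 and 3.69 CPM in HHH in batch 1, and 6.01, 5.41 and 7.70 CPM against 4.90, 4.70 and 3.48 CPM in batch 2. It followed the same pattern at a lower level. The neural sum, most of it NES, crossed between the batches in the same direction, and its part in the MXD4 and MNT values was not tested. The pooled log2 fold changes were -0.10 ± 0.09 for MXD4 (adjusted p = 0.56) and -0.29 ± 0.16 for MNT (adjusted p = 0.33). The differences between the batches were -0.39 ± 0.15 for MXD4 (adjusted p = 0.18) and -0.69 ± 0.27 for MNT (adjusted p = 0.20). Of the exon bases of MNT, 12.2% are shared with an antisense gene that had about 1 CPM.

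In batch 2 fitted alone, 4 of the 10 network genes passed, MYC and MXI1 as higher and MYCL and MNT as lower. Among all genes 5.13% passed there as higher and 8.05% as lower. MXI1 had a log2 fold change of 0.31 ± 0.09 (adjusted p = 0.046) and MNT of -0.56 ± 0.16 (adjusted p = 0.038). With 1 library of batch 2 left out, 1 to 3 members passed, and MYC passed each time. Without general batch 2 replicate 1 it was 1 member, MYC. Without HHH batch 2 replicate 1, HHH batch 2 replicate 3 or general batch 2 replicate 3 it was 2. In batch 1 fitted alone none passed, with 2 libraries a population, although MYC and MYCN had an unadjusted p under 0.05 as higher (0.013 and 0.0083), as 7.07% of all genes did there.

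The batches differed for more of these genes than the populations did. Between batch 2 and batch 1, with population as a term, 7 of 10 passed, where 47.9% of all genes did (24% higher and 23.9% lower). In batch 2 MYC (0.20 ± 0.08, adjusted p = 0.049), MGA (0.31 ± 0.07, adjusted p = 0.0018), MXI1 (0.60 ± 0.11, adjusted p = 0.00044) and MNT (0.70 ± 0.17, adjusted p = 0.0036) were higher. MYCN (-0.47 ± 0.10, adjusted p = 0.0016), MAX (-0.29 ± 0.10, adjusted p = 0.021) and MXD3 (-0.32 ± 0.06, adjusted p = 0.0011) were lower. The number that passed was 5 to 7 over 12 alternatives. The MYC call was lost with RLE scaling (adjusted p = 0.052) and with 8 of the 10 libraries left out in turn (highest adjusted p = 0.16), all but general batch 1 replicate 2 and HHH batch 2 replicate 3. The MAX call was lost with 3 left out, general batch 1 replicate 2, HHH batch 1 replicate 2 and general batch 2 replicate 1 (highest adjusted p = 0.11). What the batches stand for cannot be told from the labels.

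The proteins that work with the network were given by a list of 22 genes: the MAX-like factor MLX with MLXIP and MLXIPL, co-repressors, histone acetyltransferases, chromatin remodelers and MYC-binding proteins. All 22 were tested, 0 were higher and 1 was lower in HHH (4.55% as lower, beside 3.89% of all genes), and 5 were higher and 3 lower at an unadjusted p under 0.05 in edgeR, beside 10.1% and 10.8% of all genes. These shares of lower calls are near those of all genes, and their median log2 fold change was 0.009 beside 0.016 for all genes. The gene that fell was MLXIPL, also known as ChREBP, a glucose-responsive factor that pairs with MLX. It had 1.73 and 2.01 CPM in general and 1.09 and 1.49 CPM in HHH in batch 1, and 3.96, 3.23 and 5.39 CPM against 2.30, 2.14 and 2.32 CPM in batch 2. HHH was below general in both batches, with a log2 fold change of -0.77 ± 0.16 (adjusted p = 0.0087). The most abundant partners did not pass. HDAC2, a deacetylase of the repressor complexes, had 317 ± 24.4 CPM in general and 332 ± 13.4 in HHH. RUVBL1, an ATPase, had 126 ± 10.3 and 141 ± 3.16. NCOR1, a co-repressor, had 117 ± 31.7 and 104 ± 28.7 (SD, n = 5 each).

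Of 11 genes that set the stability or degradation of MYC protein, all were tested, 1 was higher and 0 were lower in HHH, beside 1.94% of all genes as higher, with a median of 0.038. AURKA, the mitotic kinase that stabilizes MYCN, had 99.8 and 99.2 CPM in general and 112 and 112 CPM in HHH in batch 1, and 95.5, 101 and 86.7 CPM against 113, 125 and 121 CPM in batch 2. All HHH values were above all general values, with a log2 fold change of 0.27 ± 0.07 (adjusted p = 0.034). The AURKA call was lost with the replicate block (adjusted p = 0.053) and without any 1 of 7 libraries (highest adjusted p = 0.12), namely HHH batch 1 replicate 2 and each of the 6 libraries of batch 2. The ubiquitin ligase HUWE1 (472 ± 68.5 and 414 ± 64.7 CPM), the deubiquitinase USP28 (147 ± 16.5 and 146 ± 30.5 CPM) and the F-box protein SKP2 (123 ± 25.5 and 132 ± 19.3 CPM; general and HHH, SD, n = 5 each) did not pass.

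The 12 listed partners of MGA belong to PRC1.6, a Polycomb complex known to silence germline genes. They gave 0 calls in either direction, in edgeR, in DESeq2 and in each other alternative. Beside 5.83% of all genes in edgeR, 0 of 12 is near the share of all genes. Above 0 were 10 of the 12 log2 fold changes (83.3%), beside 53.0% of all tested genes, with a median of 0.082 beside 0.016. In batch 1 alone 5 were above 0 and in batch 2 alone 11, and no test of the list was made. At an unadjusted p under 0.05 edgeR gave 1, HDAC1 as lower, beside 10.8% of all genes. Among them HDAC2 (above), CBX3, a chromodomain protein (228 ± 47.4 and 242 ± 27.5 CPM), and HDAC1 (96.6 ± 6.25 and 85.9 ± 8.41 CPM; general and HHH, SD, n = 5 each) were the most abundant. The germline genes themselves were mostly near the floor of detection. Of 16 listed, 7 were tested, 0 were higher and 1 was lower in HHH, beside 3.89% of all genes as lower. That gene was DAZL, an RNA-binding protein of germ cells. It had 21.0, 13.3, 12.6, 17.4 and 15.2 CPM in the 5 general libraries and 2.96, 3.96, 4.29, 4.53 and 6.72 CPM in the 5 HHH libraries. The groups did not overlap, with a log2 fold change of -1.83 ± 0.19 (adjusted p = 3.9e-05). Each of the 9 genes not tested had at most 8 counts in any library. TDRKH (26.4 ± 1.07 and 27.1 ± 1.68 CPM) and ZCWPW1 (2.25 ± 0.27 and 2.29 ± 0.14 CPM) were measured at the same level in both populations within their spread. STAG3, a meiotic cohesin subunit, had 5.69 ± 2.75 and 4.20 ± 1.55 CPM (SD, n = 5 each). The STAG3 value did not pass (-0.37, adjusted p = 0.13), and passed with the replicate block (adjusted p = 0.040) and without HHH batch 1 replicate 3 (adjusted p = 0.023).

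The E-box was looked for in the RefSeq promoter windows of GRCh38.p14, 250 bases before and 50 from the start of each gene. The letters searched were CACGTG, which read the same on both strands. Of all 27305 windows, 2030 (7.43%) held them. For the network genes 9 windows were matched (MYC not among them), and 2 held the motif. These 2 are printed first, then the windows of 3 activated targets with more than 1 motif, and that of a germline gene with 4 motifs at a regular distance, a number that 5 of all windows (0.0183%) reached. Capitals mark CACGTG, each stretch is given 5′ to 3′ along the gene, and all lie before the start site.
MXD4 (chr4:2262330-2262359, minus strand): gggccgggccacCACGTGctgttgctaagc
MNT (chr17:2401236-2401265, minus strand): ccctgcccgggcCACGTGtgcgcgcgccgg
CDK4 (chr12:57752394-57752538, minus strand): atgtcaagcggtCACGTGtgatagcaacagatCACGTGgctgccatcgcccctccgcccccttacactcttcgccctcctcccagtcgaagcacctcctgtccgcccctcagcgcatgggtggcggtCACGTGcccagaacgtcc
LDHA (chr11:18394366-18394493, plus strand): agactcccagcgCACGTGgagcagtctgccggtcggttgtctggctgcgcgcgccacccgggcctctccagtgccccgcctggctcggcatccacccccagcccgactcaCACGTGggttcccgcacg
APEX1 (chr14:20455109-20455220, plus strand): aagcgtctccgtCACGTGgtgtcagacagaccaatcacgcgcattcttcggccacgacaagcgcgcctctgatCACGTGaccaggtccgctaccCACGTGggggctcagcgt
SLC25A31 (chr4:127730294-127730365, plus strand): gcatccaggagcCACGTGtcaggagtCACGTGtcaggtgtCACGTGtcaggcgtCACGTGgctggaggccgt

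The motif of MXD4 starts at position -238 and that of MNT at -193 from the start base. In SLC25A31, an ADP/ATP carrier of germ cells, the 4 motifs start 14 bases apart, and the gene had at most 2 counts in any library. No window of the other matched network genes held these letters, which says nothing of binding elsewhere. Among the lists, 14 of 38 matched windows of MYC activated targets held CACGTG (36.8%). For the network partners it was 2 of 18, for the MYC turnover genes 2 of 9, for the PRC1.6 partners 1 of 12, for the germline genes 2 of 15 and for the MYC repressed targets 1 of 6. HSPD1 and HSPE1 start from opposite strands of a shared promoter, so their motif is counted for both.

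The activated targets were a list of 45 genes commonly described as induced by MYC, of which 44 matched and all 44 were tested. In HHH 2 were higher and 0 lower, 4.55% as higher beside 1.94% of all genes, and at an unadjusted p under 0.05 in edgeR 16 were higher and 0 lower, beside 10.1% and 10.8% of all genes. Most differences were small and positive: 38 of 44 log2 fold changes (86.4%) were above 0, beside 53.0% of all tested genes, and the median was 0.144 beside 0.016. The targets share libraries and are expressed together, so they are not independent, and no test of the list was made. The genes that rose were ODC1, the first enzyme of polyamine synthesis and a direct MYC target, and SLC2A1, the glucose transporter GLUT1.

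ODC1 had 176 and 239 CPM in general and 321 and 252 CPM in HHH in batch 1, and 91.0, 98.9 and 88.6 CPM against 130, 125 and 129 CPM in batch 2. HHH was above general in each batch, though the batches lay far apart, with a log2 fold change of 0.47 ± 0.09 (adjusted p = 0.0071). SLC2A1 had 217, 262, 280, 308 and 306 CPM in the general libraries and 365, 362, 387, 349 and 324 CPM in HHH. The groups did not overlap, with a log2 fold change of 0.39 ± 0.09 (adjusted p = 0.020). The SLC2A1 call was lost with the replicate block (adjusted p = 0.083) and without HHH batch 1 replicate 2, HHH batch 2 replicate 1 or general batch 2 replicate 1 (highest adjusted p = 0.065). The most abundant targets, the glycolytic enzyme ENO1 (2040 ± 340 and 2271 ± 262 CPM), the chaperonin HSPD1 (1048 ± 144.9 and 1219 ± 59.6 CPM) and the helicase EIF4A1 (902 ± 218 and 1045 ± 171 CPM; general and HHH, SD, n = 5 each), did not pass. EIF4A1 shares 47.4% of its exon bases with other genes and passed without HHH batch 1 replicate 3 (adjusted p = 0.035).

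The number of activated targets past the threshold moved with the libraries. It was 9 without HHH batch 1 replicate 3 and 1 without HHH batch 1 replicate 2, HHH batch 2 replicate 1 or general batch 2 replicate 1. Among all tested genes 1373 of 23552 passed in the reported fit and 2347 of 23980 without HHH batch 1 replicate 3. In the 3 fits with 1 target, 1021 of 23888, 831 of 23870 and 896 of 23842 passed. The calls among all genes moved the same way in these fits, but not in each fit. They were also few without HHH batch 2 replicate 2 (808 of 23938) and without general batch 2 replicate 3 (841 of 23871). ODC1 and SLC2A1 both passed in those fits. In batch 2 alone 9 of 44 (20.5%) were higher and 0 lower, beside 5.13% and 8.05% of all genes. In batch 1 alone 0 passed in edgeR, where 0.573% of all genes did. At an unadjusted p under 0.05 in batch 1, 6 were higher and 0 lower, beside 7.07% of all genes as higher. The median was 0.055 in batch 1 (0.005 for all genes, with 30 of 44 values above 0) and 0.167 in batch 2 (-0.008 for all genes, with 37 of 44 above 0). Over both batches the median stayed between 0.116 and 0.177 above the median of all genes in the 25 settings tried, although on the deposited log2 values the median itself was 0.01. Targets with CACGTG in the window had a median log2 fold change of 0.153 (n = 14, from -0.008 to 0.404) and those without it of 0.171 (n = 24, from -0.149 to 0.465). The ranges overlapped almost wholly, and ODC1, with the largest difference of the list, held no CACGTG in its window. The batch difference of the list was larger than that of the populations, with 23 of 44 lower (52.3%) and 8 higher (18.2%) in batch 2. Of all genes 23.9% were lower and 24% higher there, and the median of the list was -0.234 beside 0.004.

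Of 9 genes commonly described as repressed by MYC, 8 were tested, 0 were higher and 3 were lower in HHH (37.5% as lower, beside 3.89% of all genes), with a median of -0.111. These genes share libraries and are not independent, and the list was chosen with earlier results of these data known. No test of this list was made. NDRG2, a differentiation-associated gene, had 14.3, 14.4, 15.4, 16.6 and 16.2 CPM in general and 9.58, 9.98, 8.67, 8.85 and 10.5 CPM in HHH. The groups were apart by more than their spread, with a log2 fold change of -0.69 ± 0.08 (adjusted p = 0.00018). CDKN1A, the cyclin-dependent kinase inhibitor p21, had 25.1, 7.40, 7.08, 8.97 and 9.37 CPM in general and 4.87, 4.395, 4.105, 2.78 and 3.13 CPM in HHH. The first general library of batch 1 was far above the rest, and the groups did not overlap with or without it. The log2 fold change of CDKN1A was -1.53 ± 0.25 (adjusted p = 0.0021) and -1.14 without that library. CDKN1C, the inhibitor p57, had 9.69, 9.42, 10.9, 11.95 and 11.4 CPM in general and 7.46, 9.41, 7.75, 9.11 and 8.08 CPM in HHH. Its groups were barely apart, with a log2 fold change of -0.35 ± 0.10 (adjusted p = 0.047). The CDKN1C call was lost with 8 of the 10 libraries left out in turn (highest adjusted p = 0.14), all but general batch 1 replicate 2 and HHH batch 1 replicate 3. CDKN1B (35.0 ± 3.02 and 34.3 ± 8.07 CPM), KLF6 (22.2 ± 3.43 and 21.6 ± 1.93 CPM) and GADD45A (6.82 ± 1.06 and 6.07 ± 0.79 CPM; general and HHH, SD, n = 5 each) did not pass. All 3 genes that fell are also known as genes of cell cycle exit or differentiation, apart from any link to MYC.

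**Figure D4:**
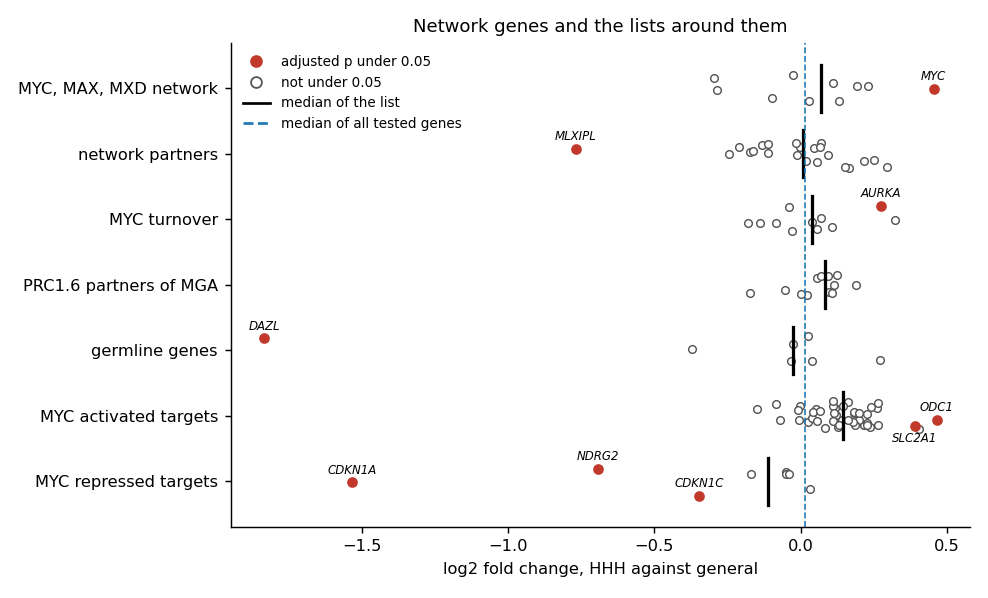
Log2 fold change of HHH against general (horizontal axis) for every tested gene of the network and of the 6 lists, 1 point per gene. Red points passed at an adjusted p under 0.05, black bars are list medians and the dashed line is the median of all genes (0.016). The activated targets sit mostly to the right of it (median 0.144) and the repressed targets to the left (median -0.111).

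The genes most like each MYC paralog were found over 9530 protein coding genes with at least 10 CPM, as Pearson's r of log2 CPM deviations from the batch means over the 10 libraries. For MYC they were CILK1 (r = 0.978), DACT1 (0.971) and FGF13 (0.969). For MYCN they were SIK3 (0.921), APBA3 (0.913) and R3HDM1 (0.910), and for MYCL MT-ND2 (0.966), ZFP90 (0.965) and CADM2 (0.963). The points share libraries, depth and the contrast of the populations, and the values describe likeness only.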

How the data were processed

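Bulk RNA sequencing of 10 libraries was used, grouped by the population, batch and replicate number of their titles. The authors deposited whole-number counts per Ensembl gene without normalization. They also deposited log2 values, used here as a score, after TMM scaling, RPKM conversion and, from the values, subtraction of a batch mean per gene (batch means equal to within 9.2e-14 over 27641 genes). The submitters' processing notes name GRCh37, CASAVA 1.8.2, R 3.2.2 and limma 3.26.9. The counting tool and strand setting are not given in the sources used here. Identifiers were matched to GENCODE 44 (88.5% of rows, 94.0% of tested genes) for symbols, chromosomes, exon lengths and overlaps. Printed coordinates are those of the RefSeq windows (GRCh38.p14), since no annotation of GRCh37 was used.

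Genes were kept by filterByExpr (minimum count 10, population as group), scaled by TMM (factors 0.832 to 1.18) and tested two-sided in R 4.3.3 with edgeR 4.0.16 (quasi-likelihood F test), with batch as a term and Benjamini-Hochberg adjustment over all tested genes. Genes passed at an adjusted p under 0.05. The procedure was tested on simulated data. The floor of 3 counts stood for 0.046 to 0.0687 CPM per library, which covers counting error only. Interaction, batch and within-batch fits used the same steps.

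Replicate numbers shared within a batch were checked by correlating deviations from the group means: 0.113 in batch 1, and 0.239, 0.143 and 0.113 in batch 2. Differently numbered pairs of batch 2 had -0.126 to -0.005. In batch 1, with 2 libraries a population, the values mirror each other and a differently numbered pair also had 0.113, so batch 1 does not bear on the pairing. In batch 2 the deviations of a group also sum to 0, so positive values for some pairs force negative ones for others. The same-numbered pairs of batch 2 all exceeded 0.1, and on this limited ground the numbers were taken as pairs in the blocked fit. The reported fit used batch alone. In batch 1 only replicate number 2 occurs in both populations. General replicate 1 and HHH replicate 3 of that batch thus had no partner in the blocked fit and did not inform its population difference. The blocked fit was an alternative beside other scalings, filters, DESeq2 1.42.0, limma 3.58.1 with voom, limma on the deposited values, and each library left out. Removal of a GC trend and centring of the deposited values were added after the data were seen. The genes and lists were chosen with earlier results of these data known. Named were all 10 network genes, list genes that passed (at most 6 a list), the 3 other most abundant of each list, and the 3 genes most like each MYC paralog. The marker genes named were chosen after their values were seen. An item withheld from this text is not reported here.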

Additional observations from a re-analysis of the deposited data

Results flagged for a closer look

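The HHH libraries of MYCN were all above the general mean in batch 1 and all below it in batch 2, and the change between batches was -0.56 on the log2 scale (adjusted p = 0.067). The same crossing was seen for MXD4 (-0.39, adjusted p = 0.18), MNT (-0.69, adjusted p = 0.20) and the neural marker NES (-0.75, adjusted p = 0.11). In the opposite direction, from below the general mean in batch 1 to above it in batch 2, it was seen for HDAC2 (0.22, adjusted p = 0.37), USP28 (0.31, adjusted p = 0.22), CBX3 (0.51, adjusted p = 0.15), TDRKH (0.17, adjusted p = 0.49), ZCWPW1 (0.22, adjusted p = 0.66) and CDKN1B (0.47, adjusted p = 0.20). None of these passed the test of the difference in edgeR. COL1A1, of the fibroblast list, did, with a value of -1.01 for the HHH change of batch 2 minus that of batch 1 on the log2 scale (adjusted p = 0.032). A crossing rests on the sides taken by 2 HHH libraries in batch 1 and 3 in batch 2. The share of all tested genes that cross in this way was not counted, so a crossing does not set the named genes apart.

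Single libraries stood far from the other 4 of their population in 7 of 82 groups looked at. The cutoff flags about 1 in 20 groups of independent values with a normal spread. These groups pool 2 batches, share libraries and include genes named after their values were seen, so that rate is no measure here. MAX had 24.9 CPM in HHH batch 1 replicate 2, against 16.6 to 18.2 CPM in the other HHH libraries. MXD1 had 6.27 CPM in general batch 1 replicate 2, against 4.48 to 4.89 CPM. MXD4 had 17.6 CPM in general batch 1 replicate 1, against 20.8 to 22.1 CPM. CDKN1A had 25.1 CPM and KLF6 28.3 CPM in general batch 1 replicate 1, against 7.08 to 9.37 CPM and 20.1 to 21.5 CPM. LHX5 had 0.366 CPM in HHH batch 1 replicate 3, against 0.0519 to 0.141 CPM. THY1 had 156.5 CPM in general batch 1 replicate 2, against 135 to 140 CPM. All 7 were libraries of batch 1, which has 2 libraries a population and differs from batch 2 in level for many genes.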

How the results depend on the processing

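The count of network genes past the threshold, 1 in the reported fit, was 0 without the batch term and on the deposited log2 values, 2 with the replicate block, 2 with no filter, 2 with the GC trend removed and 2 with both the block and the GC trend removed. For network partners (1) it was 0 without the batch term, 2 with no filter, DESeq2 or the GC trend removed, and 4 with block and GC trend. For MYC turnover genes (1) it was 0 without the batch term, with the replicate block, with library size only and on the deposited log2 values, centred or not, and 2 with no filter, DESeq2, the GC trend removed, or block and GC trend. Germline genes (1) gave 2 with the replicate block, also with the GC trend removed. Activated targets (2) gave 0 without the batch term and on the deposited log2 values, 1 with library size only, 4 with no filter or DESeq2, 6 with the GC trend removed and 7 with block and GC trend. Repressed targets (3) gave 1 without the batch term and 2 with library size only and on the centred deposited values. The interaction, 0 of 10, gave 1 when genes needed 1 CPM in 5 libraries. With each library left out in turn, 1 to 2 network genes, 1 to 2 partners, 0 to 1 turnover genes, 1 to 2 germline genes, 1 to 9 activated targets and 2 to 3 repressed targets passed, and 1 to 3 network genes in batch 2 alone. The calls among all tested genes moved as well. They were 1373 of 23552 in the reported fit, 168 without the batch term, 1065 with library size only and 1983 with DESeq2. They were 1636 with the replicate block, 1767 with the GC trend removed and 2465 with both. With no filter they were 2423 of 44356, and on the deposited log2 values 1242 of 23495, or 919 when centred. With a library left out they ran from 808 to 2347. The cause of these shifts was not tested.

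Signs reversed for values near 0: MYCN was -0.043 with the replicate block, -0.010 with library size only, -0.11 on the deposited log2 values, and -0.037 to 0.080 with a library left out (-0.030, -0.022 and -0.037 without general batch 1 replicates 1 and 2 and HHH batch 1 replicate 2). MAX was -0.013 and MXD1 -0.029 on the deposited log2 values. The replicate block changed the calls of MYCL, AURKA, SLC2A1 and STAG3 and of no other network or list gene named above in the pooled comparison. That fit also leaves general batch 1 replicate 1 and HHH batch 1 replicate 3 without a partner. MYC ran from 0.32 to 0.51 over 24 alternatives, with an adjusted p from 8.6e-06 to 0.15. With 2 libraries a population, batch 1 alone limits what can be called.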
